A study of Macaca mulatta with 23 samples.

Results

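CD8+ effector memory T cells (TEM) of untreated rhesus macaques were measured on 11 Illumina bead arrays, 1 for each animal, out of 23 arrays in the whole study. The members were chosen by their time label alone, as the arrays taken before any antibody was given. Of these animals, 5 were later given an antibody against interleukin-15 (IL-15) and 6 an IgG1 control antibody, and none had received either when the cells were taken. The cells were sorted from peripheral blood mononuclear cells, and the labels read here name the animal, the number of sorted cells, the time and the antibody, with no age or sex. Animals are numbered within the arm they later joined, as anti-IL-15 animals 1 to 5 and control animals 1 to 6, and their later arrays are used only to ask whether a level recurs in the same animal.

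Effector memory CD8+ T cells recirculate through blood and tissues and kill infected cells on renewed contact with antigen. They store granzymes, proteases that trigger death of the target cell, together with the pore-forming protein perforin, and recognise the target through the T cell receptor with CD8 as co-receptor. IL-15 sustains them in the resting state through a receptor with the IL2RB and IL2RG chains, which signal by the kinases JAK1 and JAK3 to STAT5.

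Each array detected 12113 to 14132 of 47230 probes (detection p under 0.05, against the negative control beads of that array). Precision is limited by there being 11 arrays. Levels are log2 intensities after background correction and quantile normalisation, on a scale with a maximum of 14.26, and a detected probe read 4.82 or more. After a filter on detection, on at least 5 of the 11 arrays, 7868 genes were tested, of which 5315 were detected on all 11. The array names human genes and was used on macaque RNA. A dim signal may be a low transcript or a probe that matches the macaque sequence poorly, and these cannot be told apart. For the same reason the brightness of different probes is not a scale of transcript abundance, and levels below are given as probe signals. In sorted bulk cells, fewer cells of a type and less RNA per cell cannot be told apart either.

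Of the 7 markers of the sorted cells, 6 were detected on all 11 arrays. CD3D, a chain of the T cell receptor complex, averaged 13.57 ± 0.09 (SD, n = 11), and CD8A, the alpha chain of CD8, averaged 13.06 ± 0.40. PRF1, which encodes perforin, averaged 10.64 ± 0.73 and CCL5, a chemokine stored by memory CD8+ cells, 10.44 ± 0.73. NKG7, a cytotoxic granule protein, averaged 9.01 ± 0.98 and GZMB, granzyme B, 8.72 ± 0.53. CD3D had the smallest SD of these genes and NKG7 the largest. CD3D lies near the top of the scale, where quantile normalisation narrows the spread. The exception was CD8B, the beta chain, whose probe averaged 4.95 ± 0.44 and was detected on only 5 of 11 arrays, 2 in the anti-IL-15 arm and 3 in the control arm.

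**Figure D1:**
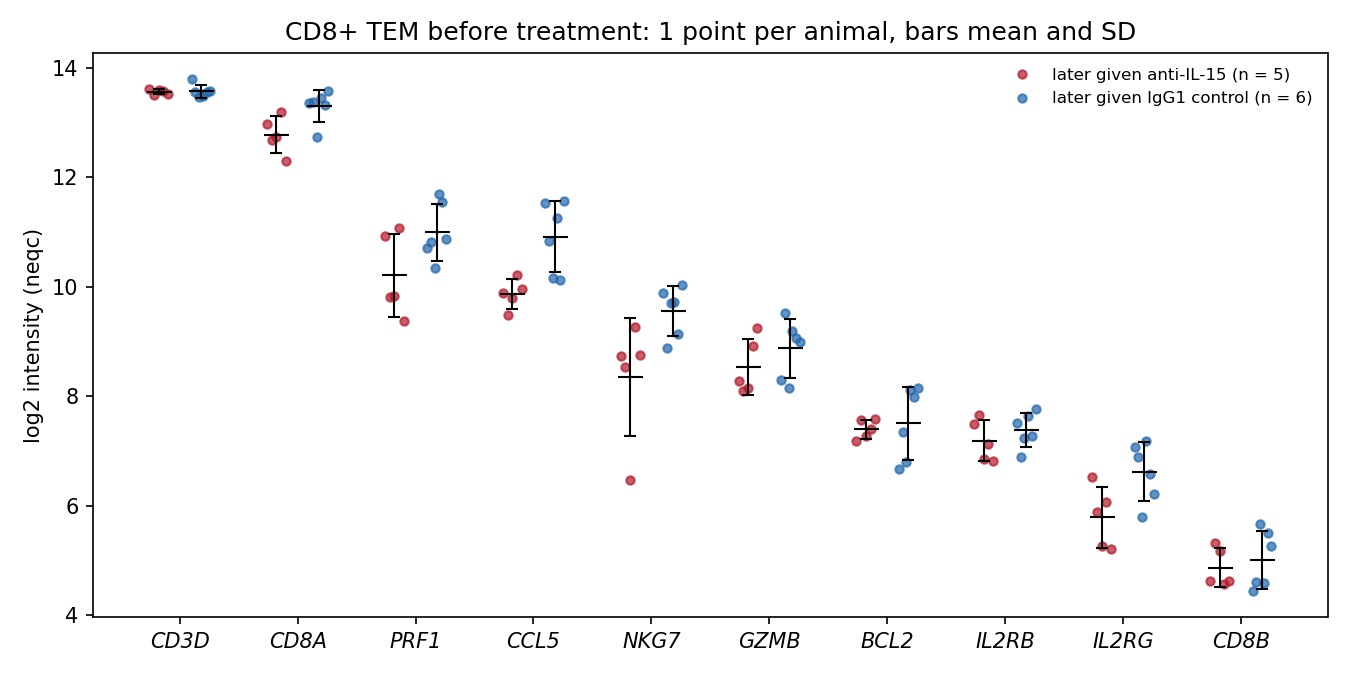
Log2 intensity of 10 genes in CD8+ TEM before treatment, with 1 point for each animal, animals later given anti-IL-15 (n = 5) on the left and later given the IgG1 control (n = 6) on the right, and bars for mean and SD. The arms overlap in all 10 genes, CD3D lies within 13.46 to 13.80 on every array, and CD8B lies near the lowest detected level of 4.82.

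The 15 brightest signals included 5 ribosomal proteins, an actin-binding protein and 1 granzyme. TPT1, a growth-associated protein abundant in most cells, was brightest, at 14.18 ± 0.05 (SD, n = 11), and its raw signal ran between 15144 and 22076 with a median of 20122. RPL10A (14.15 ± 0.05) and RPS12 (14.10 ± 0.08) followed, and RPS14, RPL11 and RPS29 were also among the 15, all ribosomal proteins. TMSB4X, which binds actin monomers, averaged 14.08 ± 0.10, and OAZ1, a regulator of polyamine synthesis, averaged 14.05 ± 0.05. GZMH, granzyme H, averaged 14.01 ± 0.05, with raw signals between 13212 and 19180. It was the only cytotoxic gene among the 15 brightest.

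The other members of the 15 were the transcription factor gene CREB1 (14.07), ORC6 of the origin recognition complex (14.05), ZNF430 (14.04), PDCD7 (14.04), the mitochondrial carrier SLC25A51 (14.02) and HLA-H (14.00 ± 0.16), the name of a class I pseudogene in humans. Among the 50 brightest genes 9 were ribosomal proteins. Several of these genes carry another probe that read quite differently, so brightness belongs to the probe. Another TPT1 probe averaged 9.92 and correlated with the first at -0.34 over the 11 arrays, another PDCD7 probe averaged 9.48 with a correlation of -0.82, and another RPL10A probe averaged 6.19. A further probe of ORC6, ZNF430 and SLC25A51 was detected on 0 arrays. For RPL11 both probes were bright, at 14.04 and 14.01. Probes for HLA and ribosomal protein genes can also bind near-identical relatives, so their identity is uncertain.

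The most constant genes were sought outside the 50 brightest, where signals may saturate, and above the median level of 7.67 of genes detected on all arrays. The 15 genes chosen for the smallest spread all lay near the top of the scale, with means from 13.68 to 13.86. They included the ribosomal proteins RPS27 (13.85 ± 0.05) and RPS24 (13.84 ± 0.05), OCIAD1 (13.85 ± 0.06), the mismatch repair gene MSH3 (13.77 ± 0.06), and RN7SL1, the RNA of the signal recognition particle (13.80 ± 0.07). The chemokine receptor CCR6, which directs cells towards CCL20, was also among them, at 13.78 ± 0.06, while another CCR6 probe averaged 5.32 ± 0.30 and a further one was detected on 0 arrays. The remaining 9 were TUBA3FP, LOC100128288, DUSP19, C2orf69, LINC01018, PCLAF, TMEM17, MCMDC2 and BMS1P1. Further probes of these genes read lower as well, so constancy belongs to the probe. They averaged 8.39 for OCIAD1, 6.61 for PCLAF, 5.42 for MSH3 and 4.76 for LINC01018, and 13.12 and 5.95 for RPS27. A further probe was detected on 1 array for TMEM17, and on 0 for RPS24, C2orf69, TUBA3FP, MCMDC2 and PCLAF.

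Quantile normalisation gives every array the same top values, and it narrows the spread there by construction. With 75th percentile scaling, 0 of the 15 remained in the list. Over genes with a mean from 9 to 12, a range added after the data were seen, the smallest spreads were those of OSGEP (9.75 ± 0.09), REX1BD (11.55 ± 0.12), the RNA-binding protein gene SSB (9.68 ± 0.12), the splicing factor gene SRRM1 (9.42 ± 0.13) and ATP6V1G1, a subunit of the vacuolar proton pump (11.50 ± 0.14). The median SD of all genes tested was 0.35, with quartiles of 0.27 and 0.45.

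**Figure D2:**
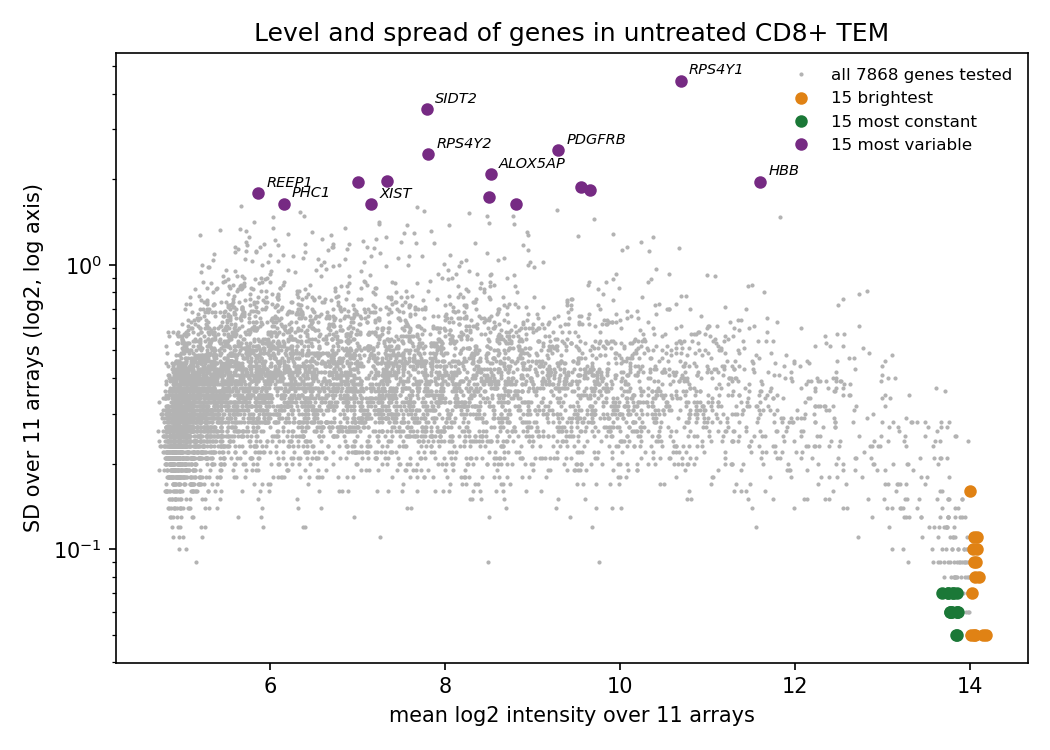
Mean log2 intensity over the 11 untreated arrays against the SD over these arrays on a log axis, with 1 point for each of 7868 genes. The 15 brightest and 15 most constant genes crowd at the upper end of the scale with SDs of 0.16 or less, and RPS4Y1 and SIDT2 have the largest SDs, 4.44 and 3.53.

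Of 30 genes for the T cell receptor, CD8 and proximal signalling, 25 had a probe and 15 of these were detected on all 11 arrays. CD3G averaged 11.09 ± 0.53, the adaptor LAT 10.63 ± 0.23, the kinase LCK 9.94 ± 0.30 and the kinase ZAP70 9.45 ± 0.42 (SD, n = 11 each). The surface molecules CD52 (11.85 ± 0.28), CD6 (10.63 ± 0.49) and CD2 (9.74 ± 0.38) were detected in every animal. CD3E, CD48, PTPRC, CD7 and TXK were detected on 0 of 11 arrays. The probe for CD3E, an invariant chain of the same complex as CD3D, thus gave no signal in cells with bright CD3D and CD3G. A second CD3D probe averaged 13.39 ± 0.12 and followed the first with a correlation of 0.82 over the 11 arrays, and another was detected on 0. For CD8A a second probe followed the first closely (correlation 0.98) and another, at 7.90 ± 0.26, did not (0.12).

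Among granule and secreted effector genes, 24 of 30 were detected on all arrays. Besides GZMH, the brightest probes of LTB (lymphotoxin beta, 13.83 ± 0.25), GNLY (granulysin, a membrane-lysing granule protein, 12.73 ± 0.61) and SRGN (serglycin, the proteoglycan that packs granules, 12.43 ± 0.32) were bright. Dimmer probes averaged 11.72 for LTB, 9.94 for SRGN and 5.72 for GNLY, whose further probe was detected on 0 arrays. The granzymes differed in how much they varied between animals. GZMH had an SD of 0.05, GZMB of 0.53, GZMM of 0.70, GZMK of 0.85 and GZMA of 1.47. GZMH lies at the top of the scale, where the normalisation narrows the spread.

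GZMA read 13.51, 12.15, 12.42, 9.52 and 10.71 in anti-IL-15 animals 1 to 5, and its lowest, median and highest levels in control animals were 9.47, 11.81 and 13.99. Anti-IL-15 animal 4 and control animal 6 were thus low by a similar amount, and the arms overlapped. GZMK, the granzyme of earlier memory stages, averaged 11.50 and CST7, an inhibitor of granule cathepsins, 10.90 ± 0.58. TNF and TNFSF10 were detected on 0 arrays and IFNG, interferon gamma, on 2 of 11.

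Of 31 chemokine and homing genes, 29 had a probe and 13 of these were detected on all arrays. ITGB7, the beta chain of gut-homing integrins, averaged 11.58 ± 0.35 and the hyaluronan receptor CD44 10.77 ± 0.33. CX3CR1, the fractalkine receptor of cytotoxic effector cells, averaged 10.41 ± 0.97 and was among the more variable. It read 10.90, 8.99, 9.68, 10.35 and 9.27 in anti-IL-15 animals, and 9.36, 11.32 and 11.59 as lowest, median and highest in control animals. Control animals 2 and 3 lay inside the range of the anti-IL-15 animals and the other 4 above it. A second CX3CR1 probe averaged 6.92 and followed the first with a correlation of 0.99. CCR7, which guides naive and central memory cells into lymph nodes, was detected on 1 of 11 arrays, and CCL4, XCL1, XCL2, CXCR3 and CXCR6 on 0.

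Of 34 natural killer type receptor genes, 15 were detected on all arrays. The inhibitory receptors LAIR1 (13.99 ± 0.08) and LILRB1 (13.65 ± 0.09) were bright, near the top of the scale, where the normalisation narrows the spread. The signalling adaptor HCST (12.47 ± 0.39) was bright too, but for each of these genes a further probe was dim. It averaged 4.98 for LAIR1, where it was detected on 6 arrays, and was detected on 0 arrays for LILRB1 and HCST. KLRD1, which pairs with NKG2 receptors, averaged 10.39 ± 0.72 and NCR3, the activating receptor NKp30, 10.32 ± 0.87. KIR2DL4, a killer immunoglobulin-like receptor, averaged 8.78 ± 1.39 and ranged from 6.83 in anti-IL-15 animal 5 to 10.63 in control animal 2. Probes for this receptor family can bind relatives, so the gene is uncertain.

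For IL-15 signalling, IL2RB averaged 7.30 ± 0.34, IL2RG 6.25 ± 0.68, JAK1 10.29 ± 0.33, STAT5A 9.16 ± 0.29 and STAT5B 7.62 ± 0.31 (SD, n = 11 each). IL15RA, the private receptor chain that presents the cytokine, was detected on 2 arrays and JAK3 on 0, and neither was tested. IL15 itself lay near the detection level, at 5.03 ± 0.35 and detected on 7 of 11. Other cytokine receptors with bright probes were TGFBR2 (11.27 ± 0.39), IL4R (9.09 ± 0.45) and IL7R (8.60 ± 1.04). IL7R, the receptor of a further survival cytokine, ranged from 6.77 in control animal 4 to 10.52 in control animal 6, and its second probe followed with a correlation of 0.96. Of 38 cytokine receptor and JAK-STAT genes, 18 were detected on all arrays.

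Survival genes of the BCL2 family were led by BCL2L1 (10.37 ± 0.32), which protects from apoptosis, and BAX (9.27 ± 0.37), which promotes it. Another BCL2L1 probe averaged 5.53, and of 2 other BAX probes 1 was detected on 1 array and 1 on 0. BCL2 averaged 7.46 ± 0.49, and 3 dimmer BCL2 probes gave 6.82, 5.10 and 4.93. In anti-IL-15 animals BCL2 lay between 7.18 and 7.58, and in control animals between 6.67 and 8.15. Control animals thus spread more widely around a similar level. The pro-apoptotic BH3 genes BCL2L11, BMF, PMAIP1 and BAD were each detected on 2 of 11 arrays.

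Of 45 T cell transcription factor genes, 30 were detected on all arrays. KLF2, which sustains quiescence and recirculation, averaged 13.97 ± 0.24, ETS1 13.44 ± 0.18, RUNX3, which sets CD8 lineage identity, 12.43 ± 0.40 and ID2 11.75 ± 0.34. Other probes averaged 12.01 for ETS1 and 5.41 for RUNX3. EOMES averaged 9.44 ± 0.76 and TBX21, also known as T-bet, 5.70 ± 0.22, both of which direct effector differentiation. NR4A2, an immediate early gene of T cell receptor signalling, averaged 11.08 ± 0.91, while NR4A1 was detected on 1 array and NR4A3 on 4. Of 19 naive and central memory genes 6 were detected on all arrays, with NOSIP at 10.42 ± 0.36 and LEF1 at 5.36 ± 0.58.

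Of 34 cell cycle genes, 14 were detected on all arrays and 6 on none. RRM1, a subunit of ribonucleotide reductase, averaged 10.38 ± 0.28 and the replication helicase gene MCM7 9.52 ± 0.32, while MKI67, CCNB1, RRM2 and BUB1 were detected on 0 of 11 arrays and TOP2A on 1. CDC20, which activates the anaphase-promoting complex, varied widely, at 6.03 ± 1.35. It read 7.07, 6.76, 8.44, 5.26 and 4.96 in anti-IL-15 animals, and 4.56, 5.28 and 7.93 as lowest, median and highest in control animals. Anti-IL-15 animal 3 and control animal 3 had the highest levels. Their sorts held 112000 and 152000 cells, but control animal 6, with 150000 cells, read 4.73. The part of cell number in the level of CDC20 was not tested.

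Among interferon-induced genes 13 of 33 were detected on all arrays, led by ISG20 (12.11 ± 0.33), IFITM1 (11.27 ± 0.30) and BST2 (10.79 ± 0.70). IFI27 (7.32 ± 1.25), IFI44 (6.90 ± 1.18) and ISG15 (8.94 ± 1.00) varied most. IFIT2, MX2, RSAD2 and USP18 were detected on 0 arrays. Of 19 genes for MHC class I presentation 15 were detected on all arrays, with B2M at 13.94 ± 0.13, the peptide trimming enzyme ERAP2 at 13.74 ± 0.13, HLA-E at 13.52 ± 0.27 and the transporter TAP1 at 12.44 ± 0.29. The signals named HLA-C (7.84 ± 1.31) and HLA-G (9.92 ± 1.28) varied far more, and these names are those of human probes for a family that differs between the species. Another ERAP2 probe averaged 7.06 ± 0.91 and correlated with the first at -0.09 over the 11 arrays.

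Among activation genes, HLA-DRA, an MHC class II chain that activated T cells carry, averaged 9.74 ± 0.82, the inhibitory receptor LAG3 8.32 ± 0.74 and the costimulator ICOS 6.21 ± 0.62. CD69 was detected on 2 arrays, CD28, CTLA4 and TIGIT on 1 each, and CD38 on 0.

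Of the markers of other cells, many were undetected and some were not. CD4 was detected on 0 of 11 arrays, and so were PAX5, BANK1 and JCHAIN for B cells, CSF1R, S100A8, S100A9 and MNDA for monocytes, CSF3R and MPO for neutrophils, PF4 and ITGA2B for platelets, and NCR1 and NCR2 for natural killer cells. Of the lists, 8 of 14 natural killer genes, 4 of 15 B cell genes, 4 of 18 monocyte and dendritic cell genes, 2 of 12 neutrophil genes and 1 of 11 genes for CD4 and regulatory T cells passed the detection filter. For gamma delta and mucosal-associated invariant T cells 3 of 13 did. Of the natural killer genes that passed, LILRB1, TYROBP (8.97 ± 1.02), KLRF1 (8.56 ± 0.60) and FCGR3A (8.38 ± 0.24) can also be carried by cytotoxic T cells. The others were KIR2DL4 and KIR3DL1 (6.39 ± 0.82), each detected on 11 arrays, KLRC1 (5.26 ± 0.48) on 7 and NCAM1 (4.84 ± 0.27) on 5. The part of natural killer cells in these signals was not tested. Of the monocyte genes CD68 (10.97 ± 0.31) and CD14 (6.20 ± 0.42) were detected on 11 arrays, ITGAX (6.52 ± 0.96) on 10 and FCN1 (4.91) on 5. The neutrophil genes FCGR3B (5.86 ± 0.43) and CAMP (5.27 ± 0.49) were detected on 11 and 10 arrays, and FCGR3B may share signal with its near-identical relative FCGR3A. For platelets, GNG11 (5.71 ± 0.75) was detected on 10 arrays, PPBP (5.54 ± 0.72) on 9 and TUBB1 (4.94) on 5. PPBP was highest in anti-IL-15 animal 4, at 7.14. For B cells, CD79A (5.41 ± 0.28) was detected on 11 arrays, and MS4A1 (4.87) on 5.

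CD79B, also a chain of the B cell receptor, read 6.23, 7.38, 6.68, 4.88 and 4.86 in anti-IL-15 animals, and 4.71, 5.03 and 8.04 as lowest, median and highest in control animals. Anti-IL-15 animals 1, 2 and 3 and control animal 3 were above the rest, and a second probe followed with a correlation of 0.94.

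Red cell transcripts were an exception. HBB, the beta chain of haemoglobin, read 12.81, 9.60, 13.32, 14.17 and 12.39 in anti-IL-15 animals, and its lowest, median and highest levels in control animals were 8.14, 10.83 and 13.77. HBA2 averaged 10.37 ± 1.25 and HBA1 7.56 ± 1.38, and these near-identical genes may share signal. Of the 16 platelet and erythrocyte genes 6 passed the filter, and the log2 of their summed linear intensity was 10.36 to 14.72 in anti-IL-15 animals and 10.04 to 14.24 in control animals. CA1 and SLC4A1, also of red cells, were detected on 0 arrays. Haemoglobin signal was thus present in every sort, at levels that varied widely in both arms.

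The most variable genes were chosen as the 15 with the largest SD over the 11 arrays, so their spread is a description and was not tested. In all, 122 of 7868 genes had an SD above 1. RPS4Y1, a Y-linked ribosomal protein gene, had the largest SD (4.44). It read 13.74, 13.81, 13.95, 5.11 and 5.36 in anti-IL-15 animals and 14.14, 13.82, 13.82, 13.90, 5.21 and 4.68 in control animals. The levels lay in separate clusters, with anti-IL-15 animals 4 and 5 and control animals 5 and 6 at the low end. RPS4Y2 split the same animals, between 8.86 and 10.72 in the other 7 and between 4.49 and 4.92 in these 4. XIST, the RNA that coats the inactive X chromosome, was reversed, between 8.57 and 9.45 in these 4 animals and between 5.10 and 6.57 in the other 7. Each arm held 2 such animals.

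SIDT2 came next (SD 3.53), but its spread rested on signals listed at 0. The raw signal was 0 in anti-IL-15 animals 1, 3 and 5 and control animals 1 and 5, and between 1671 and 2873 in the other 6. With probes that had a signal of 0 left out, 14 of the 15 genes remained, and SIDT2 was the gene lost. On the 11 arrays, 7 probes had at least 1 raw signal of 0.

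PDGFRB, a growth factor receptor tyrosine kinase, read 5.42, 10.50, 11.24, 10.61 and 4.32 in anti-IL-15 animals, and 7.78, 9.94 and 12.59 as lowest, median and highest in control animals. Anti-IL-15 animals 1 and 5 were far below the rest. ALOX5AP, which presents arachidonic acid to 5-lipoxygenase for leukotriene synthesis, read 6.05, 9.17, 5.42, 9.44 and 9.74 in anti-IL-15 animals, and 5.53, 9.04 and 11.48 as lowest, median and highest in control animals. Low levels occurred in anti-IL-15 animals 1 and 3 and control animal 5. SLC1A5, a glutamine transporter, lay between 8.91 and 9.89 in anti-IL-15 animals, and was low in control animals 2 and 4 (5.99 and 5.26) but not in the other 4 control animals (8.96 to 10.09).

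ICAM3, an adhesion molecule of resting leukocytes, was low in single animals of each arm. It read 5.58 in anti-IL-15 animal 5, against 9.47 to 10.43 in the other anti-IL-15 animals, and 6.65 in control animal 2, against 10.35 to 11.15 in the other control animals. ZFAS1, a non-coding RNA that hosts small nucleolar RNAs, read 13.10 in anti-IL-15 animal 4, while the other 10 animals lay between 6.65 and 9.37. A single animal thus set its SD of 1.73.

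TUBB2B, a beta tubulin, lay between 5.11 and 10.41 in anti-IL-15 animals and between 4.34 and 10.20 in control animals. COL11A1, a fibrillar collagen chain, lay between 4.34 and 8.85 in anti-IL-15 animals and between 5.10 and 10.03 in control animals, and a second probe followed with a correlation of 0.92. AFAP1L2, an adaptor of the kinase SRC, averaged 9.55 ± 1.88, REEP1 5.86 ± 1.79 and the Polycomb gene PHC1 6.15 ± 1.64. The arms overlapped in each of these 5 genes. Just inside the limit lay SLC1A5 and XIST, both with an SD of 1.63, and just outside it CPNE8 (1.61) and LAT2 (1.60).

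**Figure D3:**
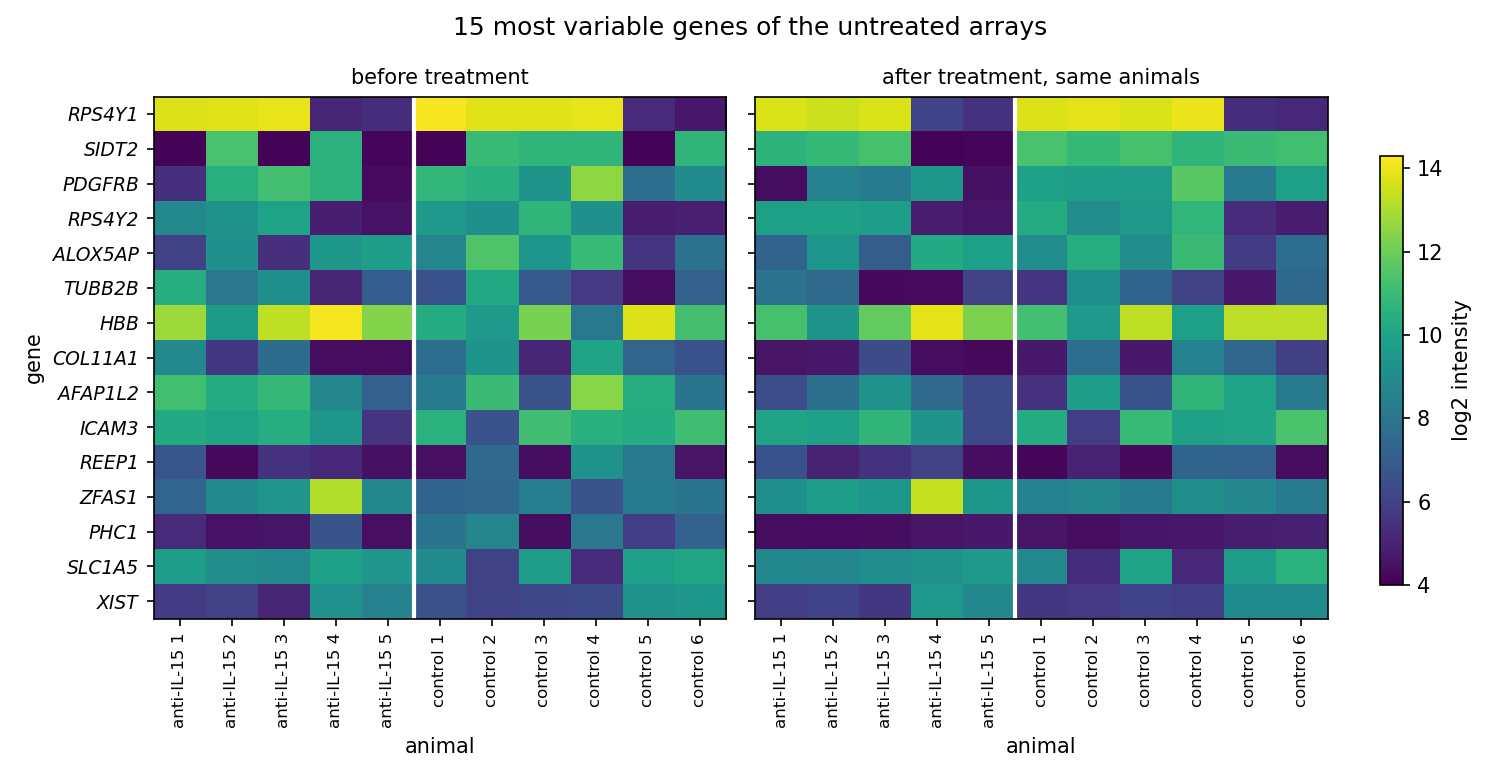
Log2 intensity, by colour, of the 15 most variable genes of the untreated arrays (rows, ordered by SD) in the 11 animals before treatment (left panel) and in the same animals after treatment (right panel), with the white line between the anti-IL-15 animals and the control animals. RPS4Y1, RPS4Y2, ICAM3 and XIST keep each animal on the same side at both times, and PHC1, between 4.40 and 8.67 before treatment, lies between 4.36 and 4.89 on all 11 arrays after it.

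The later array of the same animal, which played no part in choosing these genes, showed whether a high or low level recurred. Levels before and after were centred on the mean of their arm and time, and animals were permuted within arms (100000 resamples, two-sided). For 5 genes whose levels lay in separate clusters no correlation was computed. Of these, RPS4Y1, RPS4Y2, ICAM3 and XIST placed 11 of 11 animals on the same side of the gap at the later time, and SIDT2 placed 6 of 11. RPS4Y1, RPS4Y2 and XIST are sex chromosome genes. Where their split follows the sex of the animal, which the labels do not give, the same side was fixed in advance. Of the other 10 genes, 8 passed a Benjamini-Hochberg adjusted p under 0.05. Over all 7868 genes 18.9% had a correlation above 0.5 between the times and 0.991% had one above 0.9, and the median correlation was 0.152, against 0.853 for the 100 most variable genes.

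ALOX5AP recurred most closely, with Pearson's r = 0.975 (permutation p = 0.00023, adjusted p = 0.0023, n = 11) and Spearman's rho = 0.982 (p = 0.00028, adjusted p = 0.00265). Without the 2 animals farthest from the median r was 0.952, and within the 6 control animals it was 0.977. Anti-IL-15 animals 1 and 3 again had the lowest levels of their arm after treatment, 7.28 and 7.05, and control animal 5 that of its arm, 5.80. SLC1A5 had r = 0.974 (permutation p = 0.00294, adjusted p = 0.00588) and rho = 0.927 (adjusted p = 0.0167), with r = 0.905 without 2 animals and 0.993 in control animals. Its low animals, control 2 and 4, read 5.35 and 5.16 after treatment.

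PDGFRB had r = 0.95 (permutation p = 0.00253, adjusted p = 0.00588) and rho = 0.9 (adjusted p = 0.013), with 0.903 without 2 animals and 0.912 in control animals. Anti-IL-15 animals 1 and 5 read 4.33 and 4.45 after treatment. REEP1, detected on 6 of the 11 arrays before treatment, had r = 0.902 (permutation p = 0.00054, adjusted p = 0.0027) and rho = 0.927, with 0.844 without 2 animals. HBB had r = 0.891 (permutation p = 0.00136, adjusted p = 0.00453) and rho = 0.882, with 0.805 without 2 animals. The haemoglobin level of a sort was thus similar in order at both times.

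TUBB2B (r = 0.752, permutation p = 0.0144, adjusted p = 0.024), AFAP1L2 (r = 0.749, permutation p = 0.0209, adjusted p = 0.0298) and COL11A1 (r = 0.658, permutation p = 0.0353, adjusted p = 0.0441) passed with weaker correlations, and for COL11A1 the adjusted permutation p of rho (0.636) was 0.0566. Without the 2 farthest animals r was 0.574 for TUBB2B, 0.679 for AFAP1L2 and 0.724 for COL11A1. ZFAS1 did not pass (r = 0.846, permutation p = 0.127, adjusted p = 0.141). Its r was -0.0446 without 2 animals, so the relation rested on anti-IL-15 animal 4, which read 13.38 after treatment. PHC1 did not pass either (r = -0.279, adjusted permutation p = 0.47). Its levels after treatment, 4.36 to 4.89, lay near 4.82, the lowest detected level of the untreated arrays. Its correlation could therefore not show whether the order of the animals recurred. The number of genes that passed was 4 without control animal 2, 5 without control animal 4, and 6 to 9 without any other animal. Which genes lay in clusters, and so were not computed, changed with the animal left out, so these counts cover different genes. SLC1A5 was not computed without control animal 2 or 4, and XIST was computed and passed without anti-IL-15 animal 1, control animal 5 or control animal 6. The number was 4 of the 15 most variable when detection on all 11 arrays was required.

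**Figure D4:**
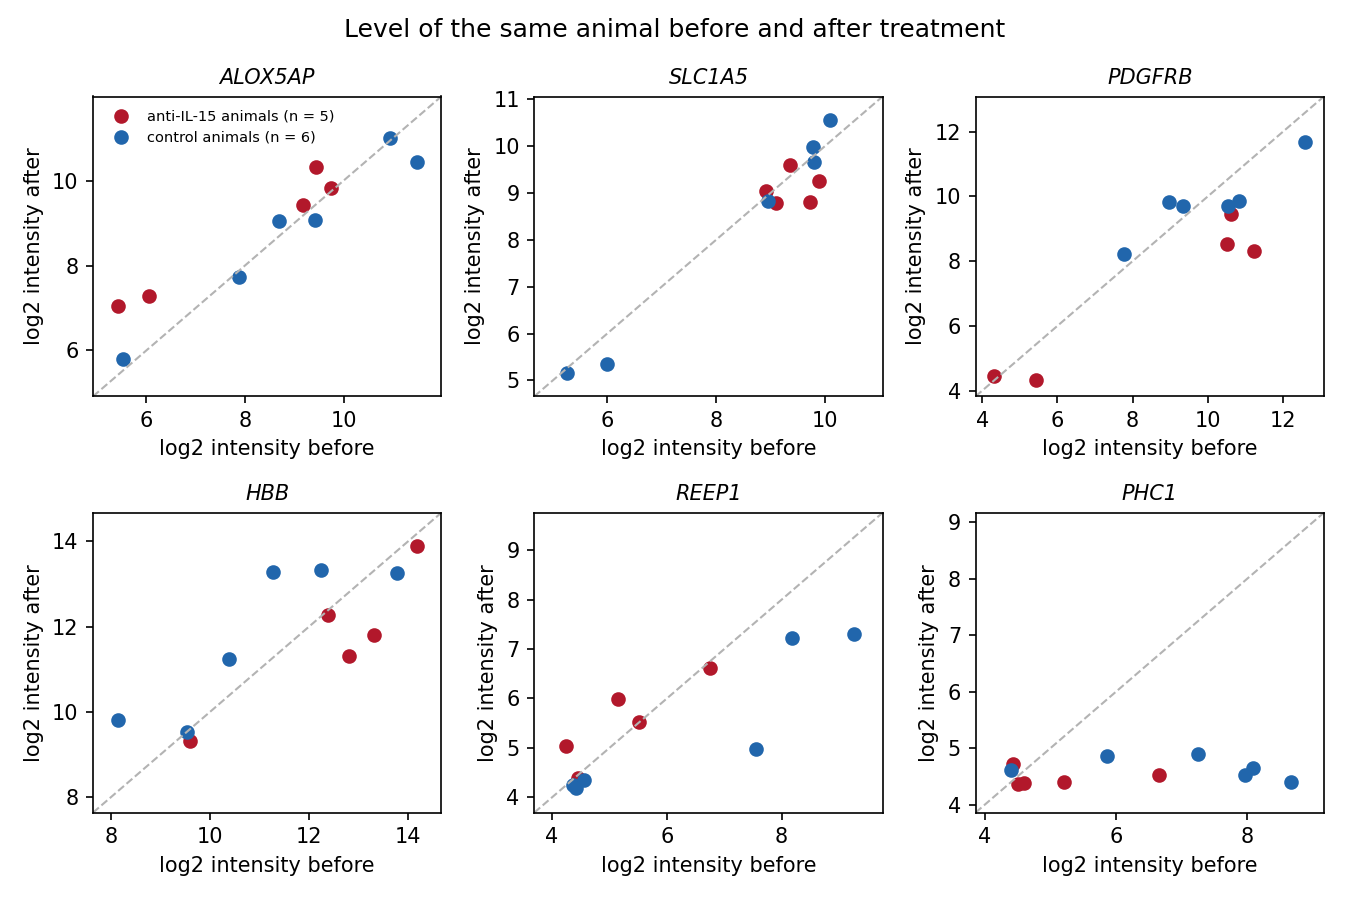
Log2 intensity of 6 of the most variable genes before (x axis) and after treatment (y axis) in the same 11 animals, with anti-IL-15 animals in red, control animals in blue, and the dashed line marking equal levels. ALOX5AP (r = 0.975) and SLC1A5 (r = 0.974) run along the line, and PHC1 (r = -0.279) lies flat, at 4.89 or less, after treatment.

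The first principal component of the 11 arrays held 26.4% of the variance and the second 16%. On the first, anti-IL-15 animals scored -7.15, 12.4, 26.1, -1.79 and 24.6, and control animals -18, -19.3, 28.2, -27.3, -8.33 and -9.34, so the arms overlapped and control animal 3 stood apart from its arm. IER2, the small Cajal body RNAs SCARNA17 and SCARNA9L, the histone gene H4C9 and HBB led its positive side, and PHC1, COL11A1, REEP1 and AFAP1L2 its negative side. The score was related to the log2 number of sorted cells, with r = -0.733 (permutation p = 0.0117, adjusted p = 0.0352 over 3 relations, n = 11), while rho = -0.656 did not pass (permutation p = 0.0322, adjusted p = 0.0966). Without the 2 farthest arrays r was -0.618, and within the 6 control animals -0.756. Neither the number of probes detected (r = -0.457, adjusted permutation p = 0.238) nor a 28S ribosomal RNA probe (r = 0.3, adjusted permutation p = 0.373) passed. Scores thus tended to be higher in sorts with fewer cells, though only r passed. Exceptions were anti-IL-15 animal 5, with 260000 cells and a score of 24.6, and control animal 6, with 150000 cells and a score of -9.34.

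The last comparison asked whether the arms differed before any antibody was given. The sorts of anti-IL-15 animals held 112000, 259000 and 274000 cells as lowest, median and highest, and those of control animals 150000, 296500 and 500000. Mean log2 cell number was 17.71 ± 0.54 in anti-IL-15 animals (SD, n = 5) and 18.09 ± 0.81 in control animals (SD, n = 6). The difference of -0.38 was smaller than the SD of either arm (exact permutation test, two-sided, p = 0.381). Of 7868 genes, 0 (0%) differed between the arms at a limma adjusted p under 0.05, and the smallest adjusted p was 0.275. At an unadjusted limma p under 0.05 there were 870 genes (11.1%), 405 higher (5.15%) and 465 lower (5.91%) in anti-IL-15 animals. With log2 cell number as a covariate, 0 genes passed and 752 had an unadjusted p under 0.05. The median difference over all genes was -0.015 on the log2 scale, and 58 genes differed by more than 1.

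The markers of the sorted cells had differences of 1 sign, without a call. All 7 were below 0, with a median of -0.53, where 4148 of 7868 genes tested were below 0. CD3D, at -0.01, hardly differed, and CD8B was detected on only 5 of 11 arrays. Of the 7 markers, 4 had an unadjusted limma p under 0.05, where 11.1% of all genes did. CD8A read 12.98, 12.68, 12.74, 13.19 and 12.30 in anti-IL-15 animals, and 12.73, 13.37 and 13.58 as lowest, median and highest in control animals. Control animal 3 lay among the anti-IL-15 animals and the other 5 above them. The difference was -0.53 (SE 0.16, limma adjusted p = 0.337), and the other CD8A probes differed by -0.47 and -0.12.

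CCL5 read 9.88, 9.48, 9.79, 10.22 and 9.96 in anti-IL-15 animals, and 10.13, 11.05 and 11.57 as lowest, median and highest in control animals. Anti-IL-15 animal 4 lay above control animals 3 and 5, and the arms overlapped only there. The difference was -1.05 (SE 0.27, limma adjusted p = 0.312), or 2.06-fold, but another CCL5 probe differed by 0.26 and correlated with the first at -0.71 over the 11 arrays. NKG7 averaged 8.35 ± 1.08 in anti-IL-15 animals and 9.56 ± 0.45 in control animals (difference -1.21, SE 0.40, limma adjusted p = 0.339), with anti-IL-15 animal 3 at 6.48. PRF1 averaged 10.21 ± 0.75 in anti-IL-15 animals and 11.00 ± 0.52 in control animals (difference -0.79, SE 0.32, limma adjusted p = 0.396). CD3D differed by -0.01, CD8B by -0.14 and GZMB by -0.33.

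Monocyte markers stood beside these differences with the opposite sign. CD14, the lipopolysaccharide co-receptor of monocytes, read 6.56, 6.26, 6.35, 6.33 and 7.06 in anti-IL-15 animals, and 5.66, 5.83 and 6.41 as lowest, median and highest in control animals. Control animal 5 lay inside the range of the anti-IL-15 animals and the other 5 below it. The difference was 0.56 (SE 0.20, limma adjusted p = 0.381), and the other CD14 probe was detected on 0 arrays. CD68 differed by 0.27, FCN1 by 0.30 and ITGAX by -0.16, so 3 of the 4 monocyte and dendritic cell genes tested were above 0 (median 0.29), 1 of them with an unadjusted p under 0.05. Their log2 summed intensity was 10.79 to 11.63 in anti-IL-15 animals and 10.74 to 11.34 in control animals. CD68, with a mean of 10.97, weighs most in this sum. CSF1R, S100A8, S100A9 and MNDA were undetected on all 11 arrays. The neutrophil genes FCGR3B (-0.54) and CAMP (-0.39) were both below 0. The part of other cells in the differences of the sorted cells' markers was not tested.

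Genes of IL-15 signalling gave mixed values, none of them called. IL2RG averaged 5.79 ± 0.56 in anti-IL-15 animals and 6.62 ± 0.54 in control animals, a difference of -0.83 (SE 0.30, limma adjusted p = 0.364). IL2RB differed by -0.20, STAT5A by 0.22, IL15 by -0.25 and BCL2 by -0.11. JAK1 read 9.99, 10.12, 9.81, 9.92 and 9.98 in anti-IL-15 animals, and 10.43, 10.58 and 10.70 as lowest, median and highest in control animals. The arms did not overlap, which held for 69 of 7868 genes (0.877%), 37 of them below (0.470%) and 32 above (0.407%) the control arm. The JAK1 difference was -0.60 (SE 0.13, limma adjusted p = 0.275).

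SOCS3, an inhibitor of JAK signalling, passed the detection filter only through the control arm, so its difference is a description. It read 4.60, 4.69, 4.39, 4.49 and 4.40 in anti-IL-15 animals, where it was detected on 0 of 5 arrays, and 4.86, 5.36 and 5.69 as lowest, median and highest in control animals, where it was detected on 6 of 6. Means were 4.52 in anti-IL-15 animals and 5.36 in control animals, a difference of -0.84. Since the dim arm gives only a bound, set by the lowest detected signal of each array, SOCS3 was at least 1.39-fold lower there. The raw signals, 89 to 143, lay close to background in both arms.

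The other 4 genes with the smallest p among those lower in anti-IL-15 animals were UBA3, a NEDD8-activating enzyme subunit (-0.73), the phosphatase regulator PPP1R7 (-0.85), JAK1 and NUS1, a subunit of dehydrodolichyl diphosphate synthase (-0.74). Those higher were PTPRF, a receptor tyrosine phosphatase (1.76), PGBD1 (1.17), MIA2 (0.92), LSM7, a component of the U6 small nuclear ribonucleoprotein (0.87) and CCDC90B (0.56), all with a limma adjusted p of 0.275. NUS1 was detected on 1 of 5 anti-IL-15 and 5 of 6 control arrays, CCDC90B on 5 of 5 anti-IL-15 and 1 of 6 control arrays, and PGBD1 on 5 of 5 anti-IL-15 and 2 of 6 control arrays. These 3 genes too passed the filter through the arm where they were high, so their differences support nothing. PTPRF averaged 7.84 ± 0.49 in anti-IL-15 animals and 6.07 ± 0.84 in control animals, and another probe of it differed by -0.05. Without control animal 5, which read 7.58, PTPRF passed with a difference of 2.06 (limma adjusted p = 0.0284), and without control animal 3 H4C9 passed. Without any other animal 0 genes passed. With the 28S probe as a covariate 2 passed, CAMK4 and RTL8A.

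IER2, an immediate early gene, averaged 7.74 ± 0.73 in anti-IL-15 animals and 6.11 ± 1.33 in control animals (difference 1.64, SE 0.54, limma adjusted p = 0.339). It was 8.02 and 7.41 in control animals 3 and 5 and lay between 4.82 and 6.08 in the other 4. HLA-DRA differed by -0.30. PHC1 averaged 5.08 ± 0.94 in anti-IL-15 animals and 7.04 ± 1.61 in control animals (difference -1.96, SE 0.65, limma adjusted p = 0.342). It was detected on 2 of 5 anti-IL-15 and 5 of 6 control arrays. PHC1 too passed the filter through the arm where it was high, so its difference supports nothing. HBB averaged 12.46 ± 1.73 in anti-IL-15 animals and 10.89 ± 1.99 in control animals (difference 1.57, SE 0.89, limma adjusted p = 0.533), and its part in the differences of other genes was not tested.

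**Figure D5:**
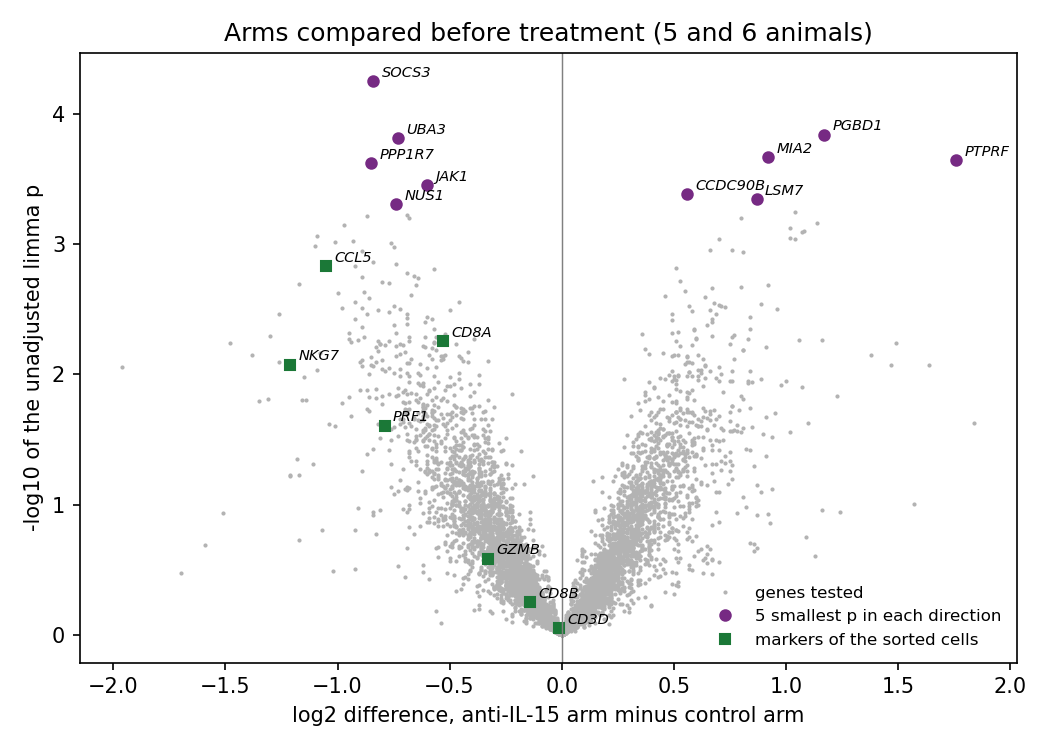
Log2 difference of anti-IL-15 minus control animals before treatment (x axis) against -log10 of the unadjusted limma p (y axis) for 7868 genes, with the 5 smallest p in each direction in purple and the markers of the sorted cells in green. All 7 markers lie at or left of 0, from -0.01 for CD3D to -1.21 for NKG7, and no gene passes the adjusted threshold.

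By gene group, 0 members of any list were called. Of the genes tested, 3720 of 7868 (47.3%) had a difference above 0. Of 16 MHC class I presentation genes, 3 were above and 13 below, with a median of -0.25. The log2 of their summed linear intensity was 15.77 to 16.02 in anti-IL-15 animals and 16.05 to 16.20 in control animals. These sums did not overlap, by a narrow margin, while those of every other list did, and the sums were not tested. B2M, ERAP2 and HLA-E weigh most in the sum, and lie near the top of the scale, where the normalisation narrows the spread. The 2 members of this list with an unadjusted p under 0.05 were HLA-F (-0.69, limma adjusted p = 0.345) and the chaperone gene CANX (-0.56). Another HLA-F probe, detected on all 11 arrays, differed by -1.6. The signals named HLA-C and HLA-G differed by -1.21 and -1.17, with SDs over the 11 arrays of 1.31 and 1.28. Of 20 T cell receptor and CD8 genes, 5 were above and 15 below (median -0.20), and of 25 granule genes, 9 were above and 16 below (median -0.25). Of 62 ribosomal protein genes, 42 were above and 20 below (median 0.15), and 14 had an unadjusted p under 0.05, where 11.1% of all genes did. Cell cycle genes had 13 of 20 above 0 (median 0.23), with AURKB at 0.91 and CDC20 at 0.86, and neither passed (limma adjusted p = 0.443 and 0.645).

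The medians of the other lists of T cell genes were -0.10 for chemokine and homing genes, -0.05 for cytokine receptors, -0.04 for transcription factors, -0.03 for natural killer type receptors, 0.02 for costimulatory and inhibitory receptors, 0.04 for interferon-induced genes, -0.07 for the BCL2 family and 0.18 for 9 naive and central memory genes. Short lists had medians farther from 0. These were -0.47 for 2 neutrophil genes, -0.46 for 4 sex chromosome genes, 0.29 for 4 monocyte and dendritic cell genes and 0.29 for 6 platelet and erythrocyte genes. The medians were -0.09 for 3 genes of gamma delta and mucosal-associated invariant T cells, -0.03 for 8 natural killer cell genes and -0.02 for 4 B cell genes, and the 1 gene for CD4 and regulatory T cells differed by 0.09. Single genes had larger differences without a call. CX3CR1 differed by -1.04 and its second probe by -0.52, TYROBP by 1.10, BST2 by 0.81, ICOS by 0.71 and TNFRSF18 by -1.11. TNFRSF18 was detected on 8 of 11 arrays. It read 4.38 and 4.43 in anti-IL-15 animals 4 and 5 and 4.38 in control animal 6, below the lowest detected level of 4.82.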

How the data were processed

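Total RNA of sorted CD8+ TEM was amplified from equal input and hybridised to Illumina bead arrays, per the labels' protocols, so levels are relative to total RNA. The deposited table holds 1 linear intensity per probe and array, not normalised, with array medians of 93 to 104 on the 11 arrays, and a detection p-value beside each, per the file headers. The authors also deposited log2 values, used here as an alternative. Per the submitters' processing notes limma was used, in a version not stated there.

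Intensities of all 23 arrays were corrected and normalised with neqc (normexp, with the control beads' level inferred from detection p-values, then an offset of 16 and quantile normalisation) in limma 3.58.1 under R 4.3.3. The filter kept 12814 of 47230 probes, those detected (p under 0.05) on 5 or more of the 11 arrays. In the platform annotation 9370 of them have 1 gene symbol, 0 have several and 3444 have none, and only the first kind are named. The brightest probe stood for a gene with several, as for 1315 of 7868 genes. Arms were compared with limma (trend over intensity, Benjamini-Hochberg adjustment), as anti-IL-15 minus control. Groups and animals come from the labels, and each array is 1 animal. On simulated data with 200 of 7868 genes changed, that comparison recovered 17.9% of the 1.5-fold changes, 73.1% of the 2-fold changes and 97% of the 4-fold changes, with 3 false calls.

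Named genes are the 15 brightest, 15 most constant and 15 most variable genes, the 5 smallest p in each direction between the arms, the markers, the brightest and most variable members of each list, and a small set around IL-15. Further list members were named for their known role after their values were seen. The members and lists were chosen with earlier results of these data known. The headers give no bead chip, so a chip effect was not tested. Alternatives were other offsets, normalisations, filters, probe rules, covariates and each animal left out.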

Additional observations from a re-analysis of the deposited data

Results flagged for a closer look

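Within each arm of 5 or 6 animals, the highest or lowest animal was compared with the others for the genes named and the technical measures. In 23 of 300 such groups (7.67%) a single animal lay far from the rest of its arm, where chance gives about 1 in 20 for independent, unselected groups. The groups here share the same arrays, and some genes were named for their spread or arm difference on them. The share can therefore not be set against that rate. No test was made of why.

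Control animal 3 stood apart most often. It scored 28.2 on the first principal component, against -27.3 to -8.33 in the other control animals. Its CD79B level was 8.04 (other control animals 4.71 to 5.47, while 3 anti-IL-15 animals read 6.23 to 7.38), ISG15 10.75 (7.84 to 8.58), CD8A 12.73 (13.32 to 13.58) and KLF2 13.56 (14.04 to 14.26). Control animal 6 had low BAK1, a pro-apoptotic gene, at 6.30 (7.11 to 7.36), and high HLA-DPA1, an MHC class II chain, at 9.93 (6.47 to 7.61), with CD52 at 12.38 (11.68 to 11.93). Control animal 2 had ICAM3 at 6.65 (10.35 to 11.15), KLF6 at 12.26 (11.79 to 11.95), CCR6 at 13.89 (13.74 to 13.79) and MSH3 at 13.85 (13.70 to 13.75). In control animal 1 CD3D was 13.80 (13.46 to 13.58), and in control animal 5 IL4R was 9.89 (8.47 to 8.93).

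In the anti-IL-15 arm, animal 3 came from the fewest cells, with a log2 number of 16.77 (others 17.74 to 18.06), and had NKG7 at 6.48 (8.54 to 9.26) and NR4A2 at 9.45 (11.23 to 11.75). Animal 5 had ICAM3 at 5.58 (9.47 to 10.43), MYC at 5.98 (7.22 to 7.61) and RPL11 at 13.81 (14.09 to 14.20). Animal 4 had CD3G at 10.72 (11.07 to 11.17) and LTB at 13.28 (13.94 to 14.14), and animal 1 had LSM7 at 10.34 (10.99 to 11.22).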

How the results depend on the processing

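The count of 0 genes called between the arms held under every alternative run except the 28S probe as a covariate, with 2, and the omission of single animals, with 0 to 1. Genes with an unadjusted p under 0.05 numbered 598 to 1614 over these settings. The list of constant genes depended most on processing. Of its 15 genes, 0 remained with 75th percentile scaling, 0 in the mean range of 9 to 12 by construction, 6 with the mean of a gene's detected probes, 5 with the 50 brightest genes admitted, and 9 to 14 without single animals. Of the 15 brightest, 8 remained with the mean of the probes. Of the 15 most variable, 7 remained with detection on all 11 arrays, where fewer genes were tested, and the number that recurred in the later array was then 4. That number was 4 to 9 without single animals, where the genes computed also changed. The difference in log2 cell number lay between -0.56 and -0.14 without single animals. Of the arm differences of named genes tried under other settings, 264 kept their direction and call and 1 passed, that of PTPRF without control animal 5. Mean levels of named genes stayed within 1 SD in 3694 cases and moved further in 211, all under another background, scaling or probe rule. The number of arrays and signals close to background limit dim genes most. No paired analysis was possible because the arms are different animals. A bead chip block was not run, since no chip is given, and recurrence was not run with the 11 arrays normalised alone.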
